A study of Mus musculus with 2 samples.

Results

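The genes described here encode transporters of sugars, amino acids and metals that belong to 11 solute carrier (Slc) families: Slc1, Slc2, Slc6, Slc7, Slc16, Slc30, Slc35, Slc36, Slc38, Slc39 and Slc43. They were chosen by gene symbol alone, through the RefSeq accession of each array probe, and 7 amino acid transporters that are known targets of the amino acid response (Slc1a4, Slc1a5, Slc6a9, Slc7a1, Slc7a5, Slc7a11 and Slc38a2) were left out. The antisense neighbour Slc7a6os carries a family prefix but is not a transporter and was not counted. This gave 122 genes, read by 176 probes, of 17302 named genes on the arrays. RNA came from the mouse hybridoma line that the labels call 1H5F9, grown in serum-containing medium. A hybridoma is the antibody-secreting product of a fusion between a myeloma cell and a B cell. Cells were kept for 4 h with 0 µg/ml (untreated) or 5 µg/ml of BSP-II, a peptide from the bursa of Fabricius, the organ of B cell development in birds. Each dose was read on 1 array; the design text speaks of 2 independent experiments, and both arrays used here carry replicate number 1. No difference below therefore has a replicate check, no test was made, and "higher" and "lower" describe these 2 arrays.

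Members of the Slc2 family (GLUT) let glucose and related sugars cross membranes along their gradient, and the proton-coupled members of Slc16 (MCT) carry lactate and pyruvate. Amino acids enter and leave cells through Slc1, Slc6, Slc7, Slc36, Slc38 and Slc43, several of which exchange 1 amino acid for another or use the sodium or proton gradient. Most Slc35 members with a known substrate carry nucleotide sugars into the endoplasmic reticulum and Golgi, where glycoproteins such as antibodies receive their sugar chains. Slc30 (ZnT) members move zinc out of the cytosol and Slc39 (ZIP) members move it in; some of the latter also carry manganese or iron.

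Detection means that a spot lay well above background by Agilent's flag. Of the 122 genes, 87 were detected on both arrays, 7 on the BSP-II array alone, 0 on the untreated array alone and 28 on neither. Over all probes, too, more passed with BSP-II: 27284, against 24683 without it. Dim spots were read further down there. The SD of the negative controls was 1.39 with BSP-II and 5.34 without, and the lowest detected signals were 7.66 and 11.4. The part of this gap in the 7 genes was not tested. Signals are Agilent's processed signals, background-subtracted brightness in arbitrary units. The 75th percentile of all spots, 309 without and 356 with BSP-II, gave a ratio of 1.15. Each log2 difference (BSP-II minus untreated) was taken after that ratio was removed, so a gene with equal raw signals lies at −0.21. Levels of different genes rest on different probes and are not compared. The error that Agilent's software gives per spot, carried to the log2 difference, had a median of 0.20 over the 87 genes and reached 0.36 for the dimmest; it leaves out differences between cultures and hybridisations. "Brighter" below means at or above the median level of all detected genes, which held for 41 of the 87.

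Of 12 plasma cell and B lineage markers, 11 were detected, with signals of 11219 and 12123 for the surface proteoglycan Sdc1 (untreated, then BSP-II), while the B cell factor Pax5 was not well above background. Of the markers of other cells, all 5 of T cells and all 3 of fibroblasts were detected, with no signal above 209. Lyz2, a macrophage enzyme, was not well above background, and the other macrophage markers reached at most 104. All 4 epithelial markers were detected, and Epcam had signals of 4123 and 4781. The others were far dimmer: Cdh1 had 191 and 287, Krt18 262 and 341 and Krt8 35.5 and 28.3. The epithelial sum is thus mostly Epcam. Summed signals were 398 and 352 for the T cell markers, 79.8 and 145 for macrophages, 70.0 and 67.0 for fibroblasts, 4612 and 5436 for epithelium and 255738 and 271752 for the plasma cell and B lineage. These are sums of raw signals, from which the array ratio of 1.15 was not removed. The plasma cell and B lineage sum is mostly Jchain, with signals of 150869 and 155073. In the macrophage sum Csf1r is read by its brightest probe, which went from 48.4 to 104, while its other detected probe went from 73.5 to 50.2. The part of these cell types in the differences below was not tested. In bulk RNA, fewer cells of a type and less RNA per cell cannot be told apart.

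The transporters as a whole lay where other genes lay. Their median log2 difference was −0.02, beside −0.03 over all 12857 named genes detected on both arrays, and 45 of the 87 (51.7%) lay above that all-gene median. Only 1 gene, the orphan transporter Slc35f5, was higher with BSP-II by 1.5-fold or more, against a background of 1.21% of all genes, and 4 were lower by as much (Slc7a12, Slc7a9, Slc38a4 and Slc6a12), against 4.83%. The other 82 genes lay within 1.5-fold. With each array scaled to its median, 4 were higher and 3 lower, against backgrounds of 2.39% and 2.96%. All 5 genes past 1.5-fold were among the dimmer genes, where the background was 2.15% higher and 8.68% lower; of the 41 brighter ones 0 passed in either direction, against 0.280% and 0.980%. Past 2-fold were 1 lower gene, Slc7a12, and 0 higher ones, against 1.00% and 0.202%. The spread followed brightness: the SD of the log2 differences was 0.19 over the 41 brighter transporters and 0.36 over the 46 dimmer ones, beside 0.18 and 0.39 for all brighter and dimmer genes.

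**Figure D1:**
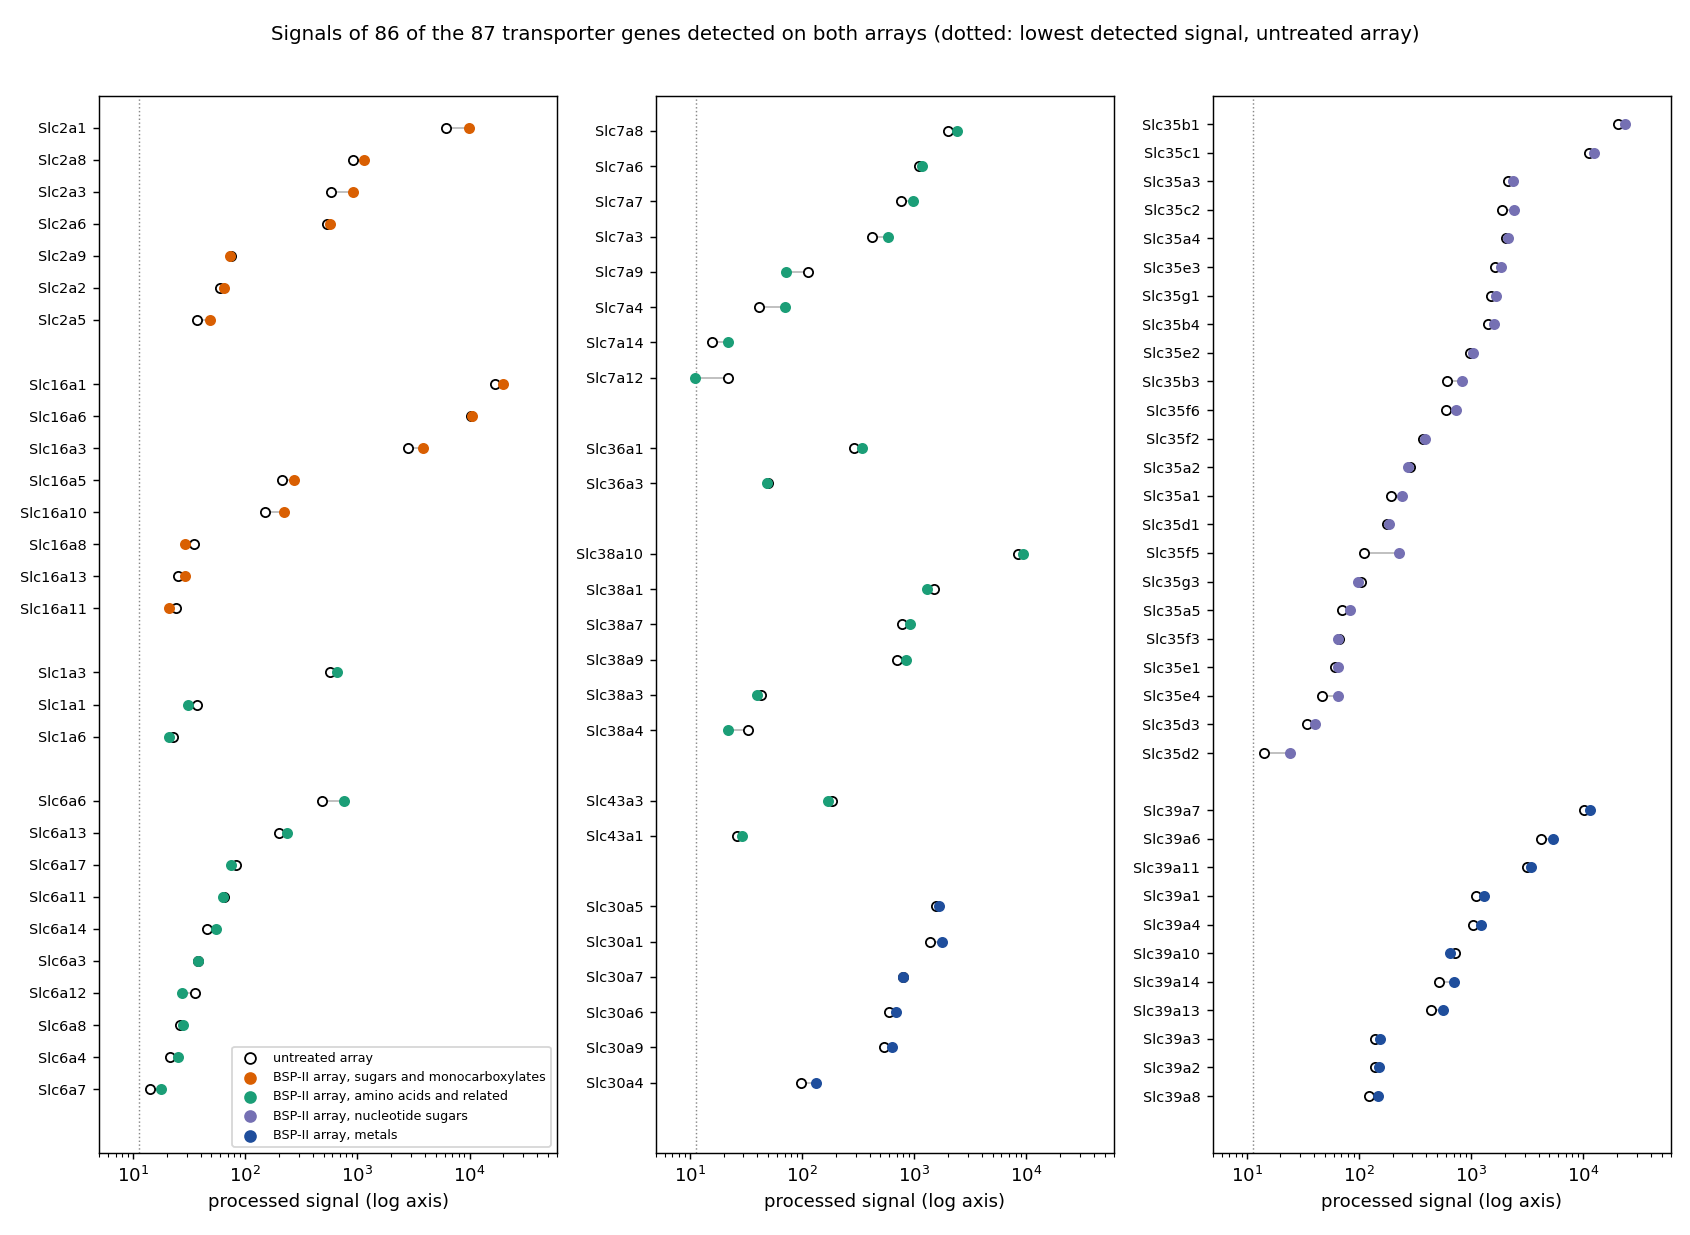
Processed signal (log axis, arbitrary units) of 86 of the 87 transporter genes detected on both arrays, grouped by family, with the untreated array as an open circle and the BSP-II array as a filled one. The dotted line is the lowest signal well above background on the untreated array (11.4). Raw signals are about 1.15 times higher on the BSP-II array over all spots, so most filled circles lie slightly to the right; genes with wide gaps, such as Slc2a1, Slc2a3, Slc6a6 and Slc35f5, lie further apart, and Slc7a9, Slc38a4 and Slc7a12 lie the other way.

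The 2 best-known glucose carriers of lymphoid cells were both higher on the BSP-II array. Slc2a1 (GLUT1), which provides basal glucose uptake, went from a signal of 6157 to 9865, a log2 difference of 0.47 (array error 0.20), or 1.39-fold. Slc2a3 (GLUT3), a high-affinity glucose carrier, went from 577 to 908, a difference of 0.45 (1.37-fold). Each was read by 1 probe, and neither spot was clustered. A spot is called clustered where at least 2 neighbours, up to 3 rows and columns away, share a direction and a difference of 2-fold or more, counting neighbours well above background on both arrays. That way of counting was settled after its output and that of counting neighbours on either array were both seen: 8.13% of all spots and 5 of the 87 members are clustered by the first, and 24.2% and 21 by the second. Less the median of all genes, the difference of Slc2a1 lay between 0.49 and 0.56 over the main setting and 11 processing alternatives, and that of Slc2a3 between 0.43 and 0.49. Both were thus at least 1.3-fold higher, as were 6 of the 87 transporters, against a background of 3.91% of all genes; at least 1.3-fold lower were 8, against 11.6%.

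The other hexose carriers lay between −0.24 and 0.18. Slc2a8 (GLUT8), an intracellular hexose transporter, had signals of 909 and 1136 (0.12), but its other probe gave −0.35. Slc2a6 (GLUT6) was at −0.10. Dim members were the fructose carrier Slc2a5 (0.18), the liver and islet glucose carrier Slc2a2 (−0.11) and the urate carrier Slc2a9 (−0.24, array error 0.21, other probe −0.15). The insulin-responsive Slc2a4 was well above background on the BSP-II array alone, at a signal of 12.8 against 7.76 untreated, and no fold can be given. Slc2a10, Slc2a12 and the myo-inositol carrier Slc2a13 were detected on neither array. The family's median of 0.12 was above that of all genes, but it was below that of all genes with normexp background correction, with each gene given the median of its probes and with every probe taken on its own.

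Lactate carriers lay on both sides of the all-gene median. Slc16a1 (MCT1), the widely expressed lactate and pyruvate carrier, had signals of 16764 and 19943, a difference of 0.05, and its other probes gave −0.07 and −0.13. Slc16a3 (MCT4), which exports lactate from glycolytic cells, went from 2816.5 to 3826, a difference of 0.24 (1.18-fold, array error 0.20). Slc16a8 (MCT3), a carrier of the retinal pigment epithelium, was dim, at 34.8 and 29.2 (−0.46), and Slc16a7 (MCT2) was detected on neither array. The chaperones that bring MCT proteins to the cell surface were close to the all-gene median: Bsg (basigin) was at −0.06 and Emb (embigin) at −0.07, with 0.05 at its other probe.

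Among the remaining Slc16 genes, Slc16a6 was at −0.17 (signals of 10229.5 and 10452; other probe −0.14). Slc16a10 (TAT1), which carries aromatic amino acids, shows how far probes of 1 gene could part: its probes gave 0.36, −0.36 and 0.00. Slc16a5 was at 0.15, Slc16a13 at −0.01 and Slc16a11 at −0.41, the last at signals of 24.1 and 20.9. Slc16a4, Slc16a9, Slc16a12 and Slc16a14 were detected on neither array.

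Regulators of glucose uptake from a list of partner genes were read beside these carriers. Txnip, an arrestin that promotes removal of GLUT1 from the cell surface and whose transcription responds to glucose through Mlxip and Mlxipl, went from 6286 to 10506, a difference of 0.54, and its other probe gave 0.58. Its relative Arrdc4 was at 0.26. The factors Mlxip and Mlxipl were at 0.03 and −0.57, the latter at signals of 60.4 and 46.8 and at a clustered spot. Over the whole partner list, 13 of 14 genes were detected and 0 passed 1.5-fold in either direction; their median was −0.03, and 6 of the 13 lay above the all-gene median.

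Promoter letters of some of these genes are shown because the hypoxia factor HIF binds the core letters ACGTG or GCGTG, and Slc2a1 and Slc16a3 are textbook HIF targets. Slc35f5 is shown as the transporter with the largest higher value. Slc30a1 is shown for TGCNCNC, a looser pattern than the core of the metal response element that the zinc-sensing factor Mtf1 binds. RefSeq's table (GRCm38.p6) held promoter windows for 67 of the 87 genes, and the 250 bases before the annotated start are printed 5′ to 3′ on the gene's strand. Capitals mark matches on either strand, to ACGTG and GCGTG in the first 3 and to TGCNCNC in the last; for Slc35f5 the upstream one of its windows is shown.
Slc2a1, chr4:119108495-119108744, plus strand: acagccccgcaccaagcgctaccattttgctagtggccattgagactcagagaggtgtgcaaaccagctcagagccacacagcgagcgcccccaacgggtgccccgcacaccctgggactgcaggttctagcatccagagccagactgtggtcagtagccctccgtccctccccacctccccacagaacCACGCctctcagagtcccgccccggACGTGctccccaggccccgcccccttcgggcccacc
Slc16a3, chr11:120948817-120949066, plus strand: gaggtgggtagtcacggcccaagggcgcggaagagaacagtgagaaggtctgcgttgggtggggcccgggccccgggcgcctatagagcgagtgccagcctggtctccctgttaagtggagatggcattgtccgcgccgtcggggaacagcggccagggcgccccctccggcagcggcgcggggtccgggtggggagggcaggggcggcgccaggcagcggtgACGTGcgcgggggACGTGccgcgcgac
Slc35f5, chr1:125560345-125560594, plus strand: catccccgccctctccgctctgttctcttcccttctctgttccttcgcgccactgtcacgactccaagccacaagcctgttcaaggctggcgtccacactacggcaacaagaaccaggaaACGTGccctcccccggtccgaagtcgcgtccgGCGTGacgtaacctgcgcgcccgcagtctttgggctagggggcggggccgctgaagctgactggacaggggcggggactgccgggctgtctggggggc
Slc30a1, chr1:191906531-191906780, plus strand: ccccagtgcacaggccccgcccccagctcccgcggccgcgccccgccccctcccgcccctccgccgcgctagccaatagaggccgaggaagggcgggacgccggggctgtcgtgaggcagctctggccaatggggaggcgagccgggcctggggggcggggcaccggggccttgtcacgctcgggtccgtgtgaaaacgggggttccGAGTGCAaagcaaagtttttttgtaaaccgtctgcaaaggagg

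Slc2a1 held ACGTG from base 36 before the start and the reverse complement of GCGTG from base 61. Slc16a3 held ACGTG at bases 27 and 14 before the start, and Slc35f5 held ACGTG at base 130 and GCGTG at base 98. In Slc30a1 the match to TGCNCNC lay on the opposite strand, from base 43. Such short letters are common: ACGTG was found in 16.6% of all 32851 promoter windows of this length, GCGTG in 28.2% and TGCNCNC in 44.4%. Over the 90 windows of detected transporters the shares were 26.7%, 36.7% and 46.7%. CACGTG, which contains ACGTG, was found in 6.02% of all windows and 12.2% of the transporters'. A further pattern searched, TGATGNAA, was found in 3.45% and 2.22%. The 90 windows belong to 67 genes, some with several overlapping windows, and the 32851 are not limited to detected genes. Whether the shares differ from those of other detected genes was not tested. The matches describe letters and not bound sites.

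Amino acid transporters went both ways, family by family. In Slc7 the light chains that pair with the heavy chain Slc3a2 lay near the all-gene median: Slc7a8 (LAT2), which carries large neutral amino acids, had signals of 1982 and 2425 (0.09), Slc7a7 (y+LAT1), an exchanger of cationic against neutral amino acids, 757 and 982 (0.17), and its relative Slc7a6 (y+LAT2) 1097 and 1185 (−0.09, other probe 0.07). Slc3a2 itself was at 0.09, with 0.13 at its other probe. None of these 3 light chains differed by more than its array error, which held for most genes. Only 4324 of all 12857 named genes, and 33 of the 87 transporters, differed by more than their own error. The light chain Slc7a10 was detected on neither array.

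With Slc7a1, the best-known arginine carrier, left out by the rule (−0.15, other probe −0.42), the cationic amino acid list held 2 genes detected on both arrays, and both lay above the all-gene median. Slc7a3 (CAT-3), which carries arginine and lysine, went from 419 to 580 (0.26, array error 0.20). Slc7a4, a relative of these carriers, went from 41.4 to 70.55 (0.56, array error 0.22), just under 1.5-fold, and its difference less the all-gene median ranged from 0.23 to 0.66 over the processing settings that kept it. Slc7a2 was detected on neither array. Slc7a14, a lysosomal family member, was near background at 15.9 and 21.9 (0.26).

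Slc7 also held the most strongly lower transporters, both of them dim. Slc7a12 (asc-2) went from 21.8 to 11.1, a difference of −1.18 (2.27-fold, array error 0.36), with a BSP-II signal near the lowest detected there, 7.66. The value was −0.50 with normexp and −0.48 without background subtraction. Slc7a9, the cystine carrier that pairs with Slc3a1 in kidney, went from 114 to 71.7, a difference of −0.87 (1.83-fold, array error 0.21), and lay between −0.87 and −0.57 over the settings. Its partner Slc3a1 was dim as well, at 26.5 and 32.5 (0.09). Each of the 2 lower genes had 1 probe, and neither spot was clustered when neighbours on both arrays were counted. With neighbours on either array the spot of Slc7a9 was clustered, and leaving out such spots left 3 members at least 1.5-fold lower. Median differences of the spots around them were −0.02 and −0.07.

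Sodium-coupled neutral amino acid transporters of the Slc38 family were lower on the BSP-II array by their brightest probes. Slc38a1 (SNAT1), which takes up glutamine, went from 1494 to 1306 (−0.40, 1.32-fold), while its other probe gave 0.04. Slc38a4 (SNAT4) went from 32.7 to 22.04 (−0.77, 1.71-fold), while its other probe gave 0.14. Slc38a3 (SNAT3), the glutamine carrier of liver, was at 43.3 and 39.7 (−0.33) by 1 probe. Thus 3 of 3 detected members of this list lay below the all-gene median, and both that had another probe were above it there. Slc38a5 was detected on neither array. Slc38a8 had a signal of 18.5 on the BSP-II array alone, which makes it at least 1.40-fold higher. Of the left-out Slc38a2 (SNAT2), the closest relative of Slc38a1, the probes also parted, at −0.23 and 0.22.

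Lysosomal amino acid transporters differed little. Slc38a9, the arginine sensor that signals to mTORC1, had signals of 707 and 846 (0.05, other probe 0.19). Slc38a7, which exports glutamine from lysosomes, had 781 and 924 (0.04), and the proton-coupled Slc36a1 (PAT1) 288 and 342 (0.05). All 3 differed by less than their array error, as did most genes. Slc38a10 was at −0.04 (signals of 8417 and 9426; other probe −0.29). The dim Slc36a3 was at −0.25 (signals of 50.2 and 48.6), with 0.21 at its other probe, and Slc36a2 and Slc38a11 were detected on neither array. Slc36a4 had a signal of 17.0 on the BSP-II array alone (array error 0.56). After scaling this was 1.296-fold above the lowest signal detected on the untreated array, which again is not a firm lower limit.

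Of the system L uniporters, which let branched-chain and aromatic amino acids pass, Slc43a1 (LAT3) was dim at 26.3 and 29.4 (−0.04) and Slc43a2 (LAT4) was detected on neither array. Slc43a3, which carries purine nucleobases, was lower, at 187 and 172 (−0.33, array error 0.21). It lay below the all-gene median in all 12 settings.

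Glutamate carriers, best known from brain, were mostly dim. Slc1a3 (GLAST), the glial carrier, was the exception with signals of 567 and 652, and its difference was 0.00. Slc1a1 (EAAC1), of neurons and epithelia, went from 37.3 to 30.6 (−0.49), while its other probe gave 0.16. Slc1a6 (EAAT4), at a clustered spot, was at 22.8 and 20.8 (−0.34). Slc1a2 was detected on neither array, and Slc1a7 on the BSP-II array alone at 12.5 against 11.2 untreated, for which no fold can be given.

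In Slc6, the sodium- and chloride-coupled carriers, the taurine carrier Slc6a6 stood out among brighter transporters. It went from 482 to 764, a difference of 0.46 (1.37-fold, array error 0.20), by the only one of its probes that was detected on both arrays. Less the all-gene median its value ranged from 0.44 to 0.50 over the settings. The betaine and GABA carrier Slc6a12, which like Slc6a6 moves an organic osmolyte, was dim and went the other way, from 35.97 to 27.05 (−0.62, 1.53-fold, array error 0.26). It passed 1.5-fold by little, and did not with any of the other scalings.

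Carriers of neurotransmitters were near background or at low signals. Slc6a13 (GAT2) was at 201 and 234 (0.01, other probe −0.03), Slc6a11 (GAT3) at 64.1 and 63.0 (−0.23, other probe −0.51), the dopamine carrier Slc6a3 at −0.22 and the serotonin carrier Slc6a4 at 0.03. The synaptic vesicle carrier Slc6a17 had signals of 82.4 and 74.0 (−0.36), and its other probes gave 0.12 and 0.01. Low signals also held for the creatine carrier Slc6a8 (−0.13), the proline carrier Slc6a7 (0.11) and the broad amino acid carrier Slc6a14 (0.07). Slc6a20b was well above background on the BSP-II array alone, at a signal of 9.08, although its untreated signal was higher, at 12.8. No fold is given for it. The noradrenaline carrier Slc6a2, the glycine carrier Slc6a5, Slc6a15, Slc6a18 and Slc6a19 were detected on neither array. Also detected on neither array were Slc7a13 and Slc7a15.

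The 7 left-out amino acid transporters, all detected on both arrays, are given for comparison. The glycine carrier Slc6a9 was at 0.39, Slc1a4 at 0.18 (other probe 0.10), the LAT1 gene Slc7a5 at 0.17 and the cystine carrier Slc7a11, at signals of 33.3 and 40.4, at 0.08. Slc1a5 (ASCT2) was at −0.10 and the arginine carrier Slc7a1 at −0.15, with −0.42 at its other, equally bright probe. Of these 7, 4 lay above the all-gene median and 0 passed 1.5-fold.

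**Figure D2:**
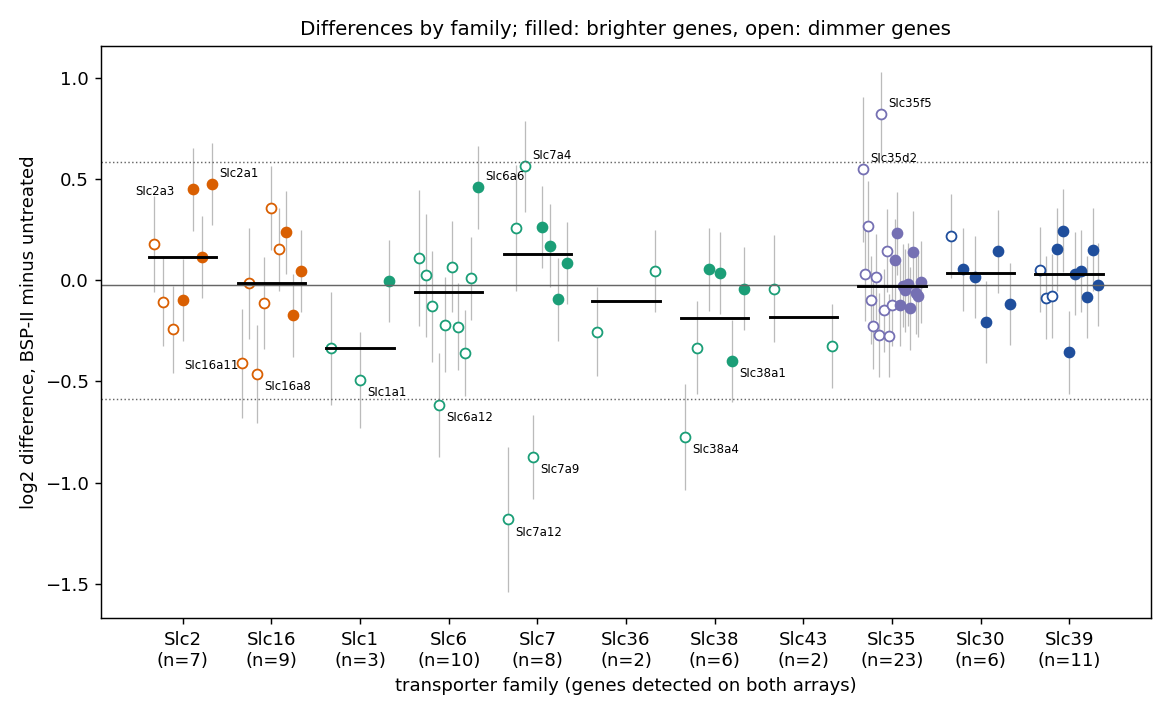
Log2 difference (BSP-II minus untreated) of each transporter gene detected on both arrays, by family, with genes ordered by level within a family; grey bars are Agilent's error of the spots, black lines family medians, the grey line the all-gene median (−0.03) and dotted lines 1.5-fold. Filled points are brighter genes and open points dimmer ones; genes at least 1.3-fold different are named. Slc35f5 alone lies above the upper dotted line and 4 open points lie below the lower one.

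Of the 25 Slc35 genes, which include the carriers that load the Golgi with nucleotide sugars, 23 were detected on both arrays, and 22 of these 23 lay within 1.5-fold. The family median of −0.03 equalled that of all genes. Slc35b1, which brings ATP into the endoplasmic reticulum, had signals of 20449 and 23424 (−0.01). Slc35c1, the GDP-fucose carrier, had 11377 and 12422 (−0.08, other probe 0.04). Slc35a3, which carries UDP-N-acetylglucosamine, had 2148 and 2371 (−0.06), but its other probe gave 0.38. All 3 differed by less than their array error at the brightest probe, as did most genes.

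Of carriers for other sugars of antibody glycans, Slc35a1, for CMP-sialic acid, was at 0.15 and Slc35a2, for UDP-galactose, at −0.27 (signals of 288 and 275), with 0.12 at its other probe. The sulfate donor carrier Slc35b3 was at 0.23 and the UDP-sugar carriers Slc35b4 and Slc35d1 at −0.03 and −0.15. Slc35d2 was at 0.55, but near background (14.4 and 24.2, array error 0.36), and its value was −0.12 with normexp and 0.01 without background subtraction. Of the 9 genes in the list of nucleotide sugar and sulfate donor carriers, 0 passed 1.5-fold and 4 lay above the all-gene median, 1 of them the ATP carrier Slc35b1, which that list also holds.

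Most Slc35 members without a settled substrate were also close to the median. Slc35f5 was the exception: its signal went from 112 to 228, a difference of 0.82 (1.77-fold, array error 0.21). It was read by 1 probe at a spot that was not clustered, where the surrounding spots had a median of −0.07. Over the settings it ranged from 0.49 (normexp) to 0.95 (authors' deposited value table). Slc35c2 was at 0.14, Slc35e4 at 0.27, Slc35f6 at 0.10, Slc35a5 at 0.02 and Slc35d3 at 0.03. The spots of Slc35d3 and Slc35b4 were clustered. Lower values were those of Slc35g3 (−0.27), Slc35f3 (−0.22), Slc35a4 (−0.14), Slc35f2 and Slc35e2 (both −0.12), Slc35e1 (−0.10), Slc35g1 (−0.05) and Slc35e3 (−0.02). Slc35f1 was detected on the BSP-II array alone, at 11.9 against 9.95 untreated, without a fold, and Slc35f4 was detected on neither.

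Zinc transporters of both directions lay close to the all-gene median, and none passed 1.3-fold. Slc30a1 (ZnT1), the exporter of the cell surface and a target of Mtf1, had signals of 1386 and 1765 (0.14, other probe 0.09). Of the exporters that load the secretory pathway, Slc30a5 had 1559 and 1656 (−0.12, other probe −0.10), Slc30a7 794.4 and 793.7 (−0.21) and Slc30a6 596 and 695 (0.02). The mitochondrial Slc30a9 was at 0.05 and Slc30a4 at 0.22. Slc30a3, the islet carrier Slc30a8 and the manganese exporter Slc30a10 were detected on neither array. The 6 detected Slc30 genes had a median of 0.04.

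Zinc importers were detected in 11 of 13 genes, with a median of 0.03 and a range from −0.36 to 0.24. Slc39a7, which releases zinc from the endoplasmic reticulum and Golgi, had signals of 10093 and 11458 (−0.02). Slc39a6 had 4216 and 5399.6 (0.15), whereas Slc39a10, with which it forms a heteromer at the cell surface, had 715 and 644 (−0.36, 1.28-fold). The pair thus lay on opposite sides of the all-gene median. Slc39a11 had 3135 and 3413 (−0.08).

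Slc39a14, which also imports manganese and iron, was at 0.24 (other probe 0.18) at a clustered spot, and the related Slc39a8 at 0.05 (other probe −0.19). Slc39a1 was at 0.05, Slc39a2 at −0.09, Slc39a3, at a clustered spot, at −0.08, the intestinal importer Slc39a4 at 0.03 and the Golgi importer Slc39a13 at 0.15 (other probe −0.02). Slc39a5 and Slc39a12 were detected on neither array. Genes that answer to free zinc differed as little: the metallothioneins Mt1 and Mt2, which bind the metal, were at −0.11 and −0.07, with signals of 198420.0 and 217970.0 for Mt2, and the factor Mtf1 was at 0.03.

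Probes of 1 transporter gene often parted in direction. Of the 87 genes, 30 had a further probe detected on both arrays. The sign of the chosen probe and the next was shared in 12 of these (40.0%), beside 2609 of 4032 genes (64.7%) among all named genes. Some unlike signs are those of values close to 0, such as 0.01 and −0.03 for Slc6a13 or 0.05 and −0.07 for Slc16a1. The median gap between the probes was 0.16, beside 0.13. The widest gap was that of Slc38a4, 0.92. Of the 5 transporters past 1.5-fold, Slc38a4 was the only one with a further detected probe.

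**Figure D3:**
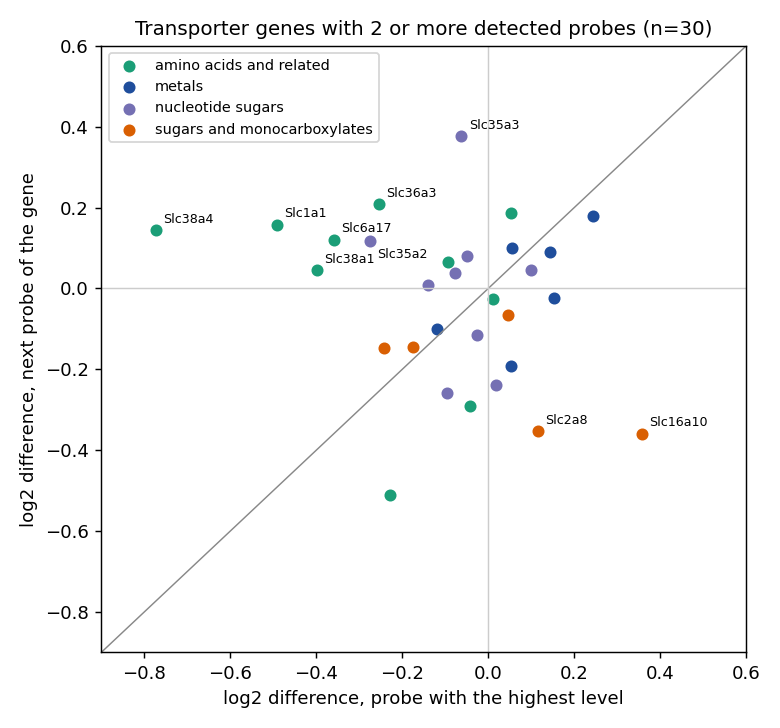
Log2 difference (BSP-II minus untreated) by the probe of the highest level (x axis) and by the next probe (y axis) for the 30 transporter genes with at least 2 probes detected on both arrays; the diagonal marks equal values and colours mark the substrate class. The points do not follow the diagonal: Slc38a4, Slc1a1, Slc38a1, Slc6a17 and Slc36a3 are below 0 on the x axis and above 0 on the y axis, and Slc16a10 and Slc2a8 are the reverse.

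Some transporters kept their side of the all-gene median in every setting that kept them, and others did not. Slc2a1, Slc2a3 and Slc6a6 lay above the all-gene median in 12 of 12 settings and Slc38a1 below it in 12, though Slc38a1 came to −0.18 as the median of its probes. The dim Slc35f5 lay above it in 12 of 12 and the dim Slc7a9 below it in 12. The 12 settings include the main one. Several others leave most single values unchanged or move all genes alike, so these are not 12 separate checks. Brighter genes near the median changed side: Slc1a3 was above it in 9 settings and below in 3, and Slc35b4 above in 5 and below in 7. With each array scaled to its median, Slc2a1 reached 0.60, past 1.5-fold, and Slc7a4 and Slc35d2 did as well.

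**Figure D4:**
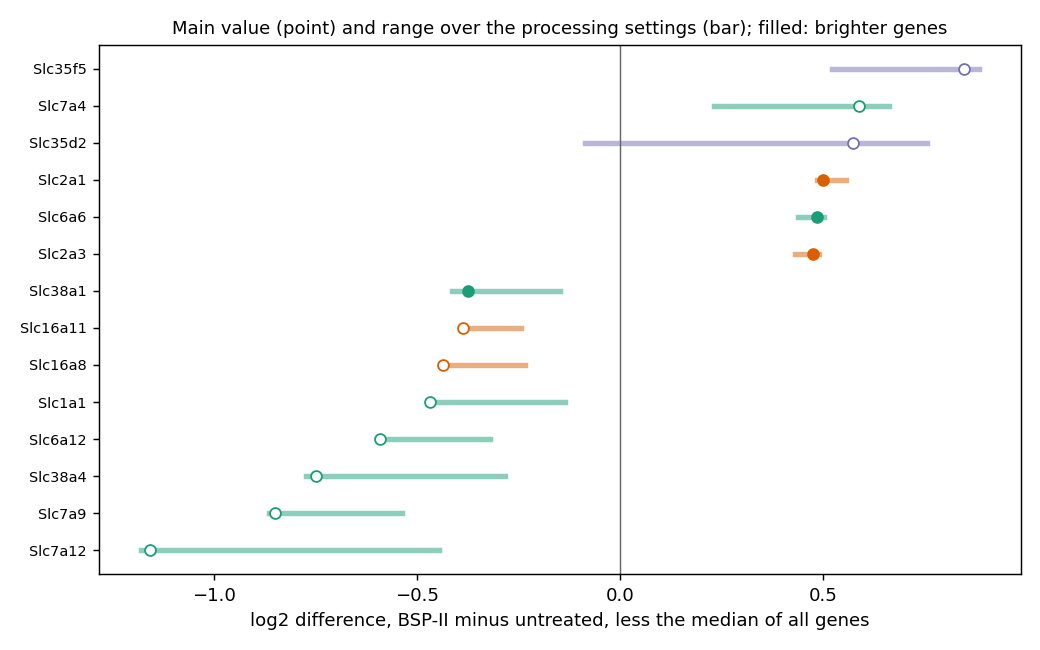
Log2 difference (BSP-II minus untreated, less the median of all genes) of the 14 transporters at least 1.3-fold different; points give the main setting and bars the lowest to highest value over the processing settings that kept the gene. The bars of Slc2a1, Slc2a3 and Slc6a6 are short and lie above 0; those of dim genes such as Slc7a12 and Slc35d2 are long, and that of Slc35d2 crosses 0.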

How the data were processed

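Labelled RNA (Cy3) of 2 cultures was read on 1-colour Agilent arrays, 1 per dose. The deposited intensity values are, per the file headers, a processed signal with background subtracted and an error, and raw median signals of spot and local background. The deposited flags (unit "other") mark saturated, outlier and well-above-background spots. The deposited value table is on a log2 scale, per its values, with its centring not given in the sources used. Per the submitters' processing notes, spots were read with Agilent Feature Extraction, version 10.5.1.1.

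Control spots and 189 outlier spots were left out. The log2 processed signal was reduced by each array's 75th percentile (309 and 356), and spots of 1 probe were averaged. Probes were named by RefSeq accession through a GRCm38.p6 table; 25091 of 41163 matched. A gene was represented by its probe of the highest mean level. Differences cover genes well above background on both arrays, and the lowest such signals were 11.4 and 7.66. With 1 array per group no test, p-value or spread between replicates could be given, and the number of arrays limits the precision. Every detected member could be named, and 2 members are counted but not reported here by name. Both signals were given for the 3 of highest level in a family and for those at least 1.5-fold different, and further signals were chosen after the values were seen. The members and lists were chosen with earlier results of these data known. How neighbours of clustered spots were counted was chosen after the data were seen. The steps were checked on simulated data. The tools were Python 3.11.15, numpy 2.4.6, pandas 2.3.3, statsmodels 0.14.6 and limma 3.58.1.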

Additional observations from a re-analysis of the deposited data

How the results depend on the processing

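The number of members past 1.5-fold depended on scaling and background correction. Scaling to the array median adds 0.12 to every log2 difference. The member median became 0.10, as did that of all genes, and 4 members were higher, beside 307 of 12857 genes. In the authors' deposited value table the median was 0.11, beside 0.10 over all genes. There 4 were higher and 2 lower, beside 307 and 255 of 12407 genes. Quantile and loess scaling each gave 3 higher, beside 228 and 245 of all 12857 genes, and subtracting local medians gave 2, beside 192. With normexp (offset 50) 0 were higher and 0 lower, beside 33 and 148 of 12855 genes. Without background subtraction 1 was lower, beside 167 of 12858 genes. With no filter on dim probes 8 were lower, beside 939 of 14081. There a signal under the lowest detected was set to that level, so such differences depend on that level. With signals of at least 4 times the lowest detected 1 was lower, beside 282 of 10405. The last of these kept 67 members; otherwise the cause was not tested. At 1.3-fold, 6 were higher and 8 lower, and at 2-fold 0 and 1. In the main setting 26 and 129 of all 12857 genes passed 2-fold. Leaving out clustered spots kept 1 higher and 4 lower, beside 144 and 529 of 12175 genes. Counting their neighbours on either array was an alternative added after seeing the data. It gave 1 and 3 among 69 members, without Slc7a9, beside 104 and 443 of 10571 genes, and turned the Slc36 median to 0.13. For single genes, 975 of 1002 values under an alternative lay within the gene's own array error of the main value, and no gene past 1.5-fold changed sign. Many of these values could not move, so the count does not measure stability. Removing the filter, requiring brighter signals and leaving out clustered spots keep the value of any probe that stays. The median of a gene's probes keeps it where 1 probe was detected. The 0.12 added by scaling to the array median is below the lowest array error, 0.20. Of 143 family medians, 58 moved by more than the repeat-spot SD of 0.07. Under scaling to the array median all 11 families had to move that far, as 0.12 was added to each. No paired analysis was possible because each group holds 1 array. Dim signals limit what can be seen: all members past 1.5-fold are among the dimmer genes.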
